A study of Mus musculus with 24 samples.

Results

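The 10 genes described here encode the core and accessory subunits of Polycomb repressive complex 2 (PRC2). They were taken from the deposited table by symbol, and all 10 were found among its 26264 genes. The core members were *Ezh2*, *Ezh1*, *Eed*, and *Suz12*, and the accessory members were *Mtf2*, *Phf1*, *Phf19*, *Epop*, *Jarid2*, and *Aebp2*. RNA was sequenced from mouse embryonic stem cells (ESCs) of 2 clones, BAP1-AID and UTX-AID. Each clone carries an auxin-inducible degron (AID) on the endogenous protein that names it, and each also overexpresses TIR1, the plant adaptor that hands the tagged protein to the proteasome once auxin (indole-3-acetic acid, IAA) is added. BAP1 removes ubiquitin from histone H2A, and UTX removes methyl groups from the lysine that PRC2 modifies. Cells were collected without IAA (−IAA) or after IAA treatment (+IAA), at 0, 3, and 6 h of retinoic acid (RA), with 2 libraries in each of the 12 groups. IAA was added 2 h before RA, so in the +IAA arm the time since IAA and the time in RA cannot be told apart.

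Every group shares the degron, the overexpressed TIR1, and growth in serum before RA. Each tag was studied in 1 clone, so the clone, its tag, and the handling of its libraries cannot be told apart. RA was added in medium without leukemia inhibitory factor, so RA and the withdrawal of that factor cannot be told apart either. The sources used here do not say what the −IAA cells received in place of IAA, nor whether the 2 libraries of a group came from separate cultures, so the p-values measure the spread between these libraries, which may be technical. Bulk RNA was measured, in which a change in the mix of cells and a change in RNA per cell cannot be told apart.

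PRC2 places methyl groups on lysine 27 of histone H3, a mark of silenced developmental genes. EZH2 or EZH1 is the catalytic subunit, EED reads the finished mark and stimulates the enzyme, and SUZ12 is the scaffold on which the complex is built. Accessory subunits bind SUZ12 and sort the complex into alternative forms. One form carries a Polycomb-like protein (MTF2, PHF1, or PHF19), which binds unmethylated CpG-rich DNA, often together with EPOP. The other carries JARID2 and AEBP2, which contact ubiquitinated H2A, the mark laid by PRC1 and removed by BAP1. In ESCs, these subunits bring PRC2 to CpG islands.

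The promoters of 3 members are shown because *Mtf2* and *Aebp2* were the members whose transcripts rose with RA in both clones, and *Ezh2* is a textbook target of E2F, the transcription factor family of the cell cycle. RefSeq windows, on the GRCm38.p6 build, were found for 9 of the 10 members, with none for *Epop*. Each line below runs from 150 bases before the start of transcription to 30 bases after it, on the strand of the gene, at chr5:108065524-108065703 (plus strand) for *Mtf2*, chr6:140624759-140624938 (plus strand) for *Aebp2*, and chr6:47595001-47595180 (minus strand) for *Ezh2*. Capitals mark an E2F motif, and the first 2 sequences hold none.
Mtf2: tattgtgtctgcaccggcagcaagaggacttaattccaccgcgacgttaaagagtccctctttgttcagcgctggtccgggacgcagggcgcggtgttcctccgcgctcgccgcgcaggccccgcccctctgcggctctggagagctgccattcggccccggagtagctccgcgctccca
Aebp2: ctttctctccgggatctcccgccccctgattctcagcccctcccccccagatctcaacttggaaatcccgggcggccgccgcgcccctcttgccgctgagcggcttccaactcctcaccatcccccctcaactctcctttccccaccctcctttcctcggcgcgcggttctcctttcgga
Ezh2: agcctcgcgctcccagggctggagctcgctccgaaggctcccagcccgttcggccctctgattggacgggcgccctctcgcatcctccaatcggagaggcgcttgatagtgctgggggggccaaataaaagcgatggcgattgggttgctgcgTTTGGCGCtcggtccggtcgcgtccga

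The 300-base windows around these starts held 30 CpG dinucleotides for *Mtf2*, 21 for *Aebp2*, and 31 for *Ezh2*, against a median of 7 over the 32851 mouse promoter windows. *Mtf2* has another RefSeq start, whose window held 2, and *Aebp2* has other starts, whose windows held 4 each, and the starts shown are those with the most CpG. An E2F motif (TTTCCCGC, TTTGGCGC, or TTTCGCGC on either strand) lay in the windows of *Ezh2*, *Suz12*, and *Phf19*, and in 1.845% of all windows. The single binding site of the retinoic acid receptors, AGGTCA, occurred in the *Phf1* window alone among the members and in 16.26% of all windows. Its direct repeat at a spacing of 2 or 5 bases, which contains the single site, was in no member window and in 0.009132% of all windows for each spacing.

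The libraries held between 42018795 and 54034789 counts, and 3 counts, used as the floor of detection, were worth 0.0545 to 0.0695 CPM (counts scaled to library size), counting error only. The 12 ESC markers were all present, and their summed level was from 4383 to 5378 CPM in BAP1-AID and from 4430 to 4950.3 CPM in UTX-AID. Of 6 fibroblast markers only *Thy1* had a median above 1 CPM, the sum of the list stayed between 2.002 and 6.32 CPM over all libraries, and *Col1a1* did not exceed 0.521 CPM. Summed neural markers were higher in BAP1-AID (118 to 139.5 CPM over 4 genes) than in UTX-AID (65.7 to 97.2 CPM), without overlap. The same held for the ESC marker *Pou5f1* (1146 to 1522.3 against 792.3 to 953.5 CPM). *Dppa5a*, the highest ESC marker, had the lower median in BAP1-AID (1403.9 against 1597 CPM). Summed mesoderm markers also reached higher in BAP1-AID (6.53 to 15.97 against 3.63 to 8.78 CPM), with overlap, as did primitive endoderm markers. These levels were not adjusted for GC content. The RA target *Cyp26a1*, which encodes an RA-degrading enzyme, rose from below 1.2 CPM in every group mean at 0 h to between 124 and 499.9 CPM at 6 h. The degron acts on the protein and not on its mRNA, and *Bap1* in its own clone was at 103.7 ± 1.25 CPM without and 101 ± 2.62 CPM with IAA at 0 h (SD, n = 2). *Kdm6a*, which encodes UTX, was in UTX-AID at 111.9 ± 3.25 CPM without and 122.9 ± 2.96 CPM with IAA at 0 h. Its mean was also higher with IAA at 3 h (98.8 and 109.8 CPM) and at 6 h (108.3 and 116.2 CPM).

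The members spanned more than 2 orders of magnitude in level per length, with CPM divided by the length of all exons in kilobases (kb). *Jarid2*, *Epop*, *Mtf2*, *Eed*, *Suz12*, and *Ezh2* formed the abundant set in both clones. *Aebp2* came below them, *Ezh1* lower again, and *Phf1* and *Phf19* were the scarcest. In BAP1-AID, the medians over 12 libraries were 72.0 CPM per kb for *Jarid2*, 56.0 for *Epop*, 37.0 for *Mtf2*, 30.7 for *Eed*, 26.7 for *Suz12*, and 24.5 for *Ezh2*, and the range of each of these overlapped that of the next. *Aebp2* followed at 11.5 and *Ezh1* at 2.23 CPM per kb, both clear of their neighbours. *Phf1* at 0.564 and *Phf19* at 0.532 CPM per kb overlapped.

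In UTX-AID, *Mtf2* led at 120.4 CPM per kb, ranging from 97.1 to 140.5, and did not overlap the second gene. *Jarid2* (64.3), *Epop* (60.3), and *Eed* (53.1) followed with overlapping ranges, then *Ezh2* (42.2) and *Suz12* (33.2), each clear of the next. *Aebp2* (14.5) and *Ezh1* (2.77) again stood apart, and *Phf1* (1.02) and *Phf19* (0.831) overlapped. *Phf1* and *Phf19* rest on few reads, with 84 to 262 counts per library for *Phf1* and 92 to 290 for *Phf19*. The order within the abundant set depended on the length used. With the longest transcript in place of all exons, 7 members changed rank in BAP1-AID, *Phf1* and *Phf19* among them, and 4 in UTX-AID. By that length, *Aebp2* (15.3 to 34.6 CPM per kb) overlapped *Suz12* (28.6 to 46.4) in BAP1-AID.

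**Figure D1:**
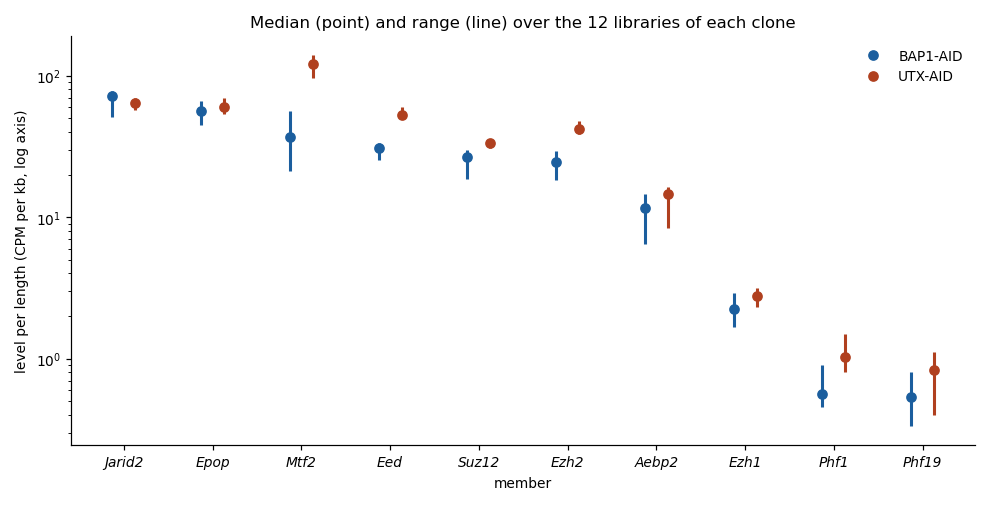
Level per length of the 10 members (vertical log axis, CPM per kb of exon) in BAP1-AID (blue) and UTX-AID (red), where points are medians and lines run from the lowest to the highest of the 12 libraries of a clone. *Mtf2* shows the widest gap between the clones, with medians of 37.0 and 120.4 CPM per kb.

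The positions of the members bear on how well they can be counted. On mm39, *Ezh2* lies at chr6:47507073-47572331 (minus strand, 20 exons), *Eed* at chr7:89603862-89630217 (minus, 12 exons), *Suz12* at chr11:79883891-79925421 (plus, 16 exons), and *Ezh1* at chr11:101081934-101117315 (minus, 21 exons). *Mtf2* lies at chr5:108213540-108256877 (plus, 15 exons), *Aebp2* at chr6:140546644-140713010 (plus, 8 exons), *Jarid2* at chr13:44882950-45075119 (plus, 18 exons), and *Epop*, a gene of 1 exon, at chr11:97518215-97520528 (minus). *Phf19* lies at chr2:34783764-34805063 (minus, 15 exons) and *Phf1* at chr17:27152002-27156892 (plus, 14 exons). Exons of *Cuta* on the other strand cover 38.6% of the exonic length of *Phf1*, and whether the counting used the strand is not given in the sources used here, so that the *Phf1* values are uncertain. The same holds for 12.01% of *Jarid2*, which shares exonic sequence with *Dtnbp1*.

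The first comparison asks how the transcripts of PRC2 itself behave while RA switches on its target genes. With the arms averaged, *Mtf2* and *Aebp2* rose in both clones at 3 and 6 h, and *Ezh2*, *Ezh1*, *Eed*, *Phf1*, and *Phf19* passed the test in neither clone at either time. At 3 h, 3 of 10 members passed in BAP1-AID, all higher (*Aebp2*, *Mtf2*, and *Epop*), where 11.2% of all genes tested passed. In UTX-AID, *Aebp2* and *Mtf2* passed, 2 of 10 members, where 8.26% of all genes did. At 6 h, 3 of 10 passed in BAP1-AID (*Mtf2*, *Aebp2*, and *Suz12*, all higher; 24% of all genes) and 3 of 10 in UTX-AID (*Aebp2* and *Mtf2* higher, *Jarid2* lower; 12.4% of all genes). The largest of these log2 fold changes was 0.83, for *Aebp2* at 3 h in UTX-AID. Over the members, the median change at 6 h in BAP1-AID was 0.16, against 0.01 over all genes tested, and in UTX-AID it was 0.04 against 0.00.

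**Figure D2:**
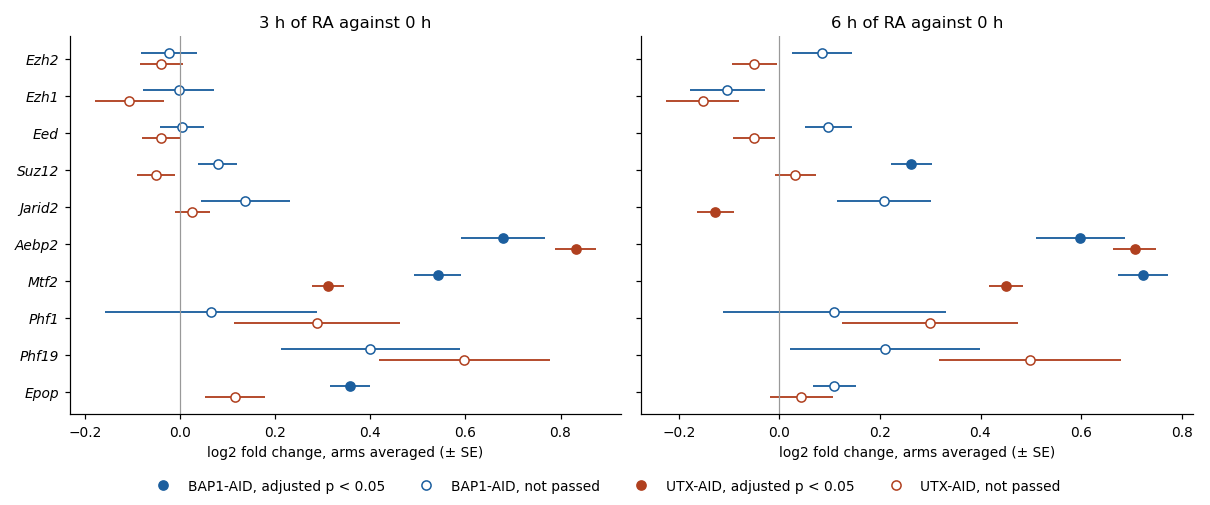
Log2 fold change of each member (horizontal axis) after 3 h (left) and 6 h (right) of RA against 0 h, with the −IAA and +IAA arms averaged, in BAP1-AID (blue) and UTX-AID (red). Bars are standard errors and filled points have an adjusted p under 0.05. *Aebp2* and *Mtf2* are filled and to the right in both clones at both times, while *Ezh2*, *Ezh1*, and *Eed* lie near 0.

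*Aebp2*, the zinc finger partner of JARID2, had the largest mean response of the members at 6 h. In −IAA BAP1-AID ESCs, it was at 106 and 124 CPM at 0 h, 152.5 and 211 CPM at 3 h, and 182 and 197 CPM at 6 h. With IAA, the same clone gave 152 and 149.8 CPM at 0 h, 238 and 235 CPM at 3 h, and 201 and 204 CPM at 6 h. Within each arm, both RA times lay above 0 h without overlap, although the 2 −IAA libraries at 3 h differed widely.

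In −IAA UTX-AID ESCs, *Aebp2* was at 137 and 155 CPM at 0 h, 258 and 269 CPM at 3 h, and 246 and 238 CPM at 6 h. With IAA it was at 148 and 156, 259 and 259, and 234 and 238 CPM at these times. The level was thus highest at 3 h in both arms. The log2 fold change at 3 h was 0.68 (SE 0.088, adjusted p = 0.000213) in BAP1-AID and 0.83 (SE 0.043, adjusted p = 3.3e-09) in UTX-AID. At 6 h it was 0.60 (SE 0.088, adjusted p = 0.000308) and 0.71 (SE 0.043, adjusted p = 1.19e-08). The decline from 3 to 6 h did not pass, at -0.08 (adjusted p = 0.652) and -0.13 (adjusted p = 0.211).

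*Mtf2*, the Polycomb-like subunit most abundant in these ESCs, rose by 3 h and was higher again at 6 h as counted. In −IAA BAP1-AID ESCs, it was at 146 and 145 CPM at 0 h, 251 and 224 CPM at 3 h, and 257 and 251 CPM at 6 h. In +IAA BAP1-AID ESCs, it was at 243 and 267, 321 and 321, and 385 and 383 CPM. Both RA times lay above 0 h in each arm, and the +IAA libraries at 0 h were already near the levels that −IAA libraries reached with RA.

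In −IAA UTX-AID ESCs, *Mtf2* was at 680.4 and 672 CPM at 0 h, 809 and 824 CPM at 3 h, and 881 and 965 CPM at 6 h. In +IAA UTX-AID ESCs, the values were 667 and 688 CPM, 829.8 and 850.2 CPM, and 885 and 914 CPM. The groups at 0, 3, and 6 h did not overlap in either arm. The log2 fold change at 6 h was 0.72 (SE 0.049, adjusted p = 4.11e-07) in BAP1-AID and 0.45 (SE 0.034, adjusted p = 1.19e-07) in UTX-AID. Between 3 and 6 h, 3 of 10 members passed in BAP1-AID (*Mtf2*, *Suz12*, and *Epop*, with 8.14% of all genes) and 2 of 10 in UTX-AID (*Mtf2* and *Jarid2*, with 1.67%). The step of *Mtf2* was 0.18 (SE 0.049, adjusted p = 0.0443) in BAP1-AID and 0.14 (SE 0.033, adjusted p = 0.047) in UTX-AID. After the GC and length adjustment, the step was 0.00 (adjusted p = 0.98) in BAP1-AID, and in UTX-AID it was 0.12 (adjusted p = 0.0522), close to the unadjusted value and just short of passing. At 6 h against 0 h, adjusted *Mtf2* was 0.50 in BAP1-AID, down from 0.72 as counted, and 0.43 in UTX-AID, close to the 0.45 as counted.

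**Figure D3:**
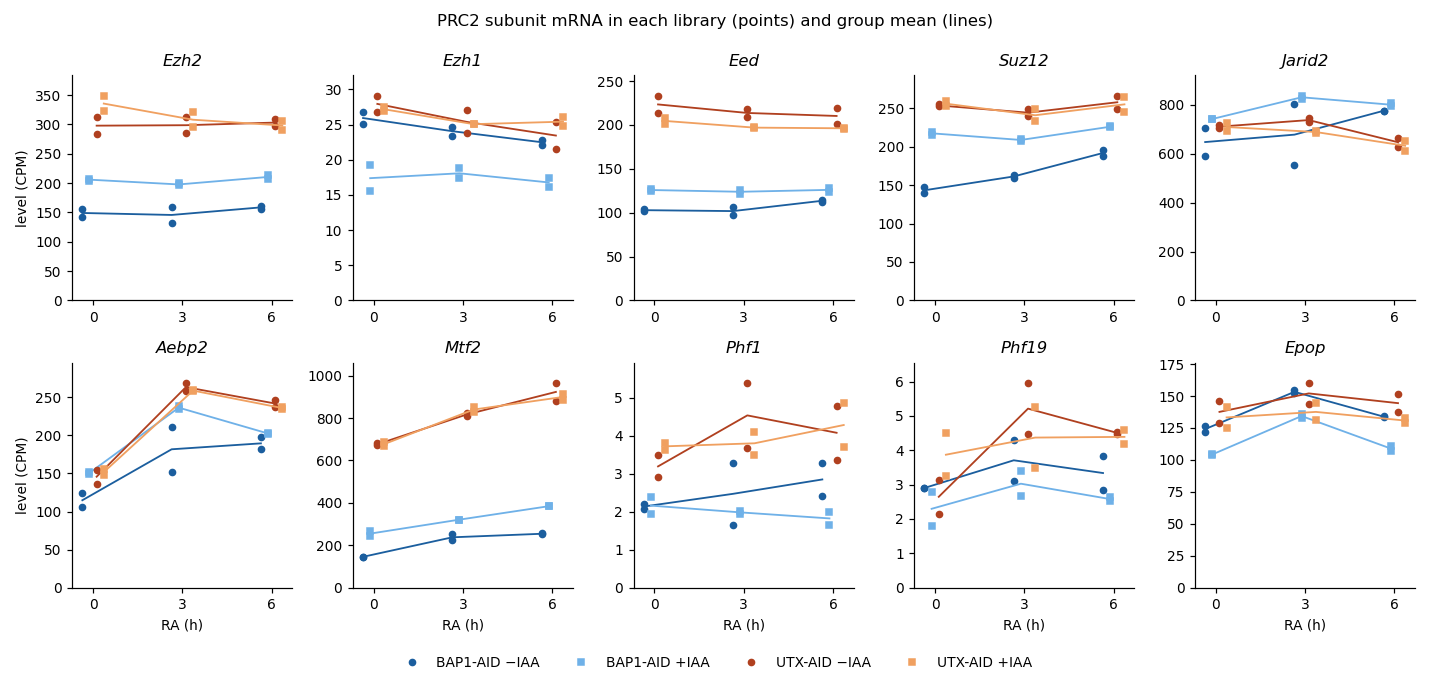
Level of each member (vertical axis, CPM, from 0) by hours of RA, where points are libraries and lines join the group means, with BAP1-AID in blue, UTX-AID in red, and +IAA in the paler shade. *Aebp2* and *Mtf2* climb with RA in all 4 combinations of clone and arm, and the *Mtf2* points of UTX-AID (667 to 965 CPM) all lie above those of BAP1-AID (145 to 385 CPM).

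Among the core subunits, only *Suz12* in BAP1-AID passed. Without IAA, it was at 147 and 139.6 CPM at 0 h, 159 and 163 CPM at 3 h, and 196 and 188 CPM at 6 h. With IAA, it was at 215 and 219, 210.01 and 207, and 227 and 225 CPM, so its rise was seen mainly in the −IAA arm. The 6 h log2 fold change was 0.45 (SE 0.058, adjusted p = 0.000203) without IAA and 0.08 (SE 0.058, adjusted p = 0.464) with IAA, and averaged over the arms it was 0.26 (SE 0.041, adjusted p = 0.000474). After adjustment for GC content and transcript length (described with the IAA comparison), the averaged value was 0.13 (adjusted p = 0.0176). In UTX-AID, the 6 h value was 0.03 (SE 0.040, adjusted p = 0.728).

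The enzyme genes and *Eed* stayed close to their starting levels. The averaged 6 h log2 fold change of *Ezh2* was 0.08 (SE 0.059, adjusted p = 0.354) in BAP1-AID and -0.05 (SE 0.045, adjusted p = 0.589) in UTX-AID. *Eed* gave 0.10 (SE 0.047, adjusted p = 0.167) and -0.05 (SE 0.041, adjusted p = 0.531). *Ezh1*, the less active paralogue found mostly in resting cells, gave -0.10 (SE 0.075, adjusted p = 0.367) and -0.15 (SE 0.073, adjusted p = 0.224).

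*Epop*, which links PRC2 to the Elongin BC proteins, peaked at 3 h in BAP1-AID. Its group means without IAA were 124 ± 3.27, 153 ± 1.56, and 134 ± 0.707 CPM at 0, 3, and 6 h (SD, n = 2), and with IAA they were 104 ± 0.948, 134 ± 2.66, and 109 ± 2.45 CPM. It rose by 3 h (log2 fold change 0.36, SE 0.043, adjusted p = 9.94e-05) and fell between 3 and 6 h (-0.25, SE 0.043, adjusted p = 0.00407). At 6 h against 0 h it was 0.11 (adjusted p = 0.0863), and it passed without replicate 1 of −IAA at 3 h (adjusted p = 0.0304). In UTX-AID, the 3 h value was 0.11 (SE 0.063, adjusted p = 0.36), and the −IAA and +IAA libraries at each time overlapped those at 0 h.

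*Jarid2*, which can recruit PRC2 to its sites, passed at 6 h in UTX-AID alone. The clone difference in its 6 h response was -0.34 (adjusted p = 0.1), which passed with DESeq2 (adjusted p = 0.0447), without the filter on low counts (adjusted p = 0.0499), with the replicate block (adjusted p = 0.0439), and after the GC and length adjustment (adjusted p = 0.043). In UTX-AID, it was at 705 and 717 CPM at 0 h, 748 and 728 CPM at 3 h, and 665 and 629 CPM at 6 h without IAA, and at 727 and 692, 693 and 684, and 653 and 613 CPM with IAA. It was lower at 6 h than at 0 h (-0.13, SE 0.036, adjusted p = 0.0301) and than at 3 h (-0.15, SE 0.036, adjusted p = 0.0485), the latter not after the GC and length adjustment (adjusted p = 0.127). The 6 h call was lost when any of 5 libraries was left out (adjusted p from 0.0587 to 0.167): both −IAA libraries at 0 h, replicate 2 of −IAA at 6 h, replicate 1 of +IAA at 0 h, and replicate 2 of +IAA at 6 h. It was also lost with all 24 libraries in one fit (adjusted p = 0.235).

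In BAP1-AID, *Jarid2* was at 591 and 704, 553 and 803, and 776 and 775 CPM without IAA, and at 744 and 740.4, 837 and 825, and 793 and 808 CPM with IAA. The 6 h value of 0.21 (SE 0.094) did not pass (adjusted p = 0.137). The −IAA libraries at 3 h stood far apart from each other. Without replicate 1 of this group the 6 h adjusted p was 0.00175, and without replicate 2 it was 0.00298, with log2 fold changes of 0.21 and 0.18. After the GC and length adjustment it was 0.18 (adjusted p = 0.042), and with *Epop* (0.13, adjusted p = 0.0255) this made 5 of 10 members at 6 h in BAP1-AID where 25.1% of all genes passed.

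With the arms averaged, the scarce Polycomb-like genes did not pass with RA in either clone. In the −IAA arm of UTX-AID alone, *Phf19* passed at 3 h (0.99, adjusted p = 0.0369). With IAA, it was 0.20 (adjusted p = 0.875) in this clone. Averaged, *Phf19* at 3 h was 0.60 (SE 0.18, adjusted p = 0.0559) in UTX-AID and 0.40 (SE 0.188, adjusted p = 0.252) in BAP1-AID. It passed in UTX-AID without the filter on low counts (adjusted p = 0.0344), and without any of 4 single libraries (adjusted p from 0.0262 to 0.0444): replicate 2 of −IAA at 0 h, replicate 1 of −IAA at 3 h, and replicates 2 of +IAA at 0 and 3 h. *Phf1* at 6 h was 0.11 (SE 0.222, adjusted p = 0.787) in BAP1-AID and 0.30 (SE 0.175, adjusted p = 0.343) in UTX-AID.

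The second comparison asks whether removal of BAP1 or UTX goes with a change in the PRC2 transcripts. In BAP1-AID, averaged over the RA times, 5 members were higher with IAA (*Mtf2*, *Ezh2*, *Suz12*, *Aebp2*, and *Eed*) and 2 were lower (*Ezh1* and *Epop*), which is 7 of 10 where 36.1% of all genes tested passed. *Mtf2* changed most, by 0.60 (SE 0.040, adjusted p = 1.04e-06), followed by *Ezh2* at 0.42 (SE 0.048, adjusted p = 3.4e-05), *Suz12* at 0.39 (SE 0.033, adjusted p = 4.02e-06), *Aebp2* at 0.27 (SE 0.072, adjusted p = 0.0109), and *Eed* at 0.22 (SE 0.038, adjusted p = 0.000681). *Ezh1* was lower by -0.49 (SE 0.061, adjusted p = 6.72e-05) and *Epop* by -0.26 (SE 0.035, adjusted p = 0.000101). At 0 h alone, 6 of these 7 passed, all but *Aebp2* (0.37, adjusted p = 0.0581), where 18.5% of all genes did. *Mtf2*, *Suz12*, *Ezh2*, and *Ezh1* also passed at 3 h and at 6 h. *Eed* did not pass at 6 h (0.12, adjusted p = 0.272), nor *Epop* at 3 h (-0.20, adjusted p = 0.0519). *Aebp2* was 0.37 (adjusted p = 0.068) at 3 h and 0.07 (adjusted p = 0.815) at 6 h. *Jarid2* was 0.16 (SE 0.076, adjusted p = 0.123), and it passed without replicate 2 of −IAA at 3 h (0.28, adjusted p = 2.32e-05). *Phf19* was -0.35 (adjusted p = 0.0969), and it passed without replicate 2 of +IAA at 0 h (-0.45, adjusted p = 0.0473). *Phf1* was -0.33 (adjusted p = 0.182), and it passed without replicate 2 of −IAA at 3 h (-0.45, adjusted p = 0.0332).

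The enzymes moved in opposite directions. *Ezh2* in BAP1-AID was at 142 and 156 CPM at 0 h, 133 and 159 CPM at 3 h, and 162 and 156 CPM at 6 h without IAA, and at 204 and 208, 196 and 199, and 213 and 208 CPM with IAA. *Ezh1* was at 26.8 and 25.1, 23.4 and 24.7, and 22.9 and 22.1 CPM without IAA, and at 19.2 and 15.6, 17.3 and 18.8, and 17.4 and 16.1 CPM with IAA. The arms did not overlap at any time for either gene, with every +IAA library higher for *Ezh2* and lower for *Ezh1*.

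These differences moved together with the base composition of the transcripts. Across 12000 genes of BAP1-AID, Spearman's rho between the log2 fold change with IAA and GC content was -0.57. Once each library had been adjusted for its trend with GC content and transcript length, rho was 0.01. For the RA response, a trend was present after this adjustment, and it was larger than before except at 6 h in BAP1-AID. In BAP1-AID, rho went from 0.01 to -0.15 at 3 h and from -0.26 to -0.11 at 6 h. UTX-AID went from -0.02 to -0.11 at 3 h and from -0.06 to -0.10 at 6 h. The correlation of a library's levels with GC content, relative to the mean of all 24 libraries, was between 0.48 and 0.59 in −IAA and between 0.15 and 0.33 in +IAA BAP1-AID libraries. *Mtf2*, at 37.5% GC, has only 2.61% of genes below it, and *Epop* (66.9%) is among the highest. After the adjustment, the same 7 members passed in the same direction for IAA averaged over the RA times, where 27.8% of all genes passed. *Mtf2* fell to 0.19 (adjusted p = 0.00183) and *Suz12* to 0.13 (adjusted p = 0.00707). *Ezh2* (0.40), *Eed* (0.28), *Aebp2* (0.35), *Ezh1* (-0.39), and *Epop* (-0.16) moved less. By time, adjusted *Suz12* was 0.25 (adjusted p = 0.0103) at 0 h, 0.15 (adjusted p = 0.117) at 3 h, and -0.01 (adjusted p = 0.944) at 6 h. *Mtf2* was 0.32 (adjusted p = 0.00601), 0.14 (adjusted p = 0.198), and 0.10 (adjusted p = 0.351) at these times. Of the 7, *Ezh2* alone passed at each time, at 0.42, 0.39, and 0.37. What sets the dependence on base composition was not tested.

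**Figure D4:**
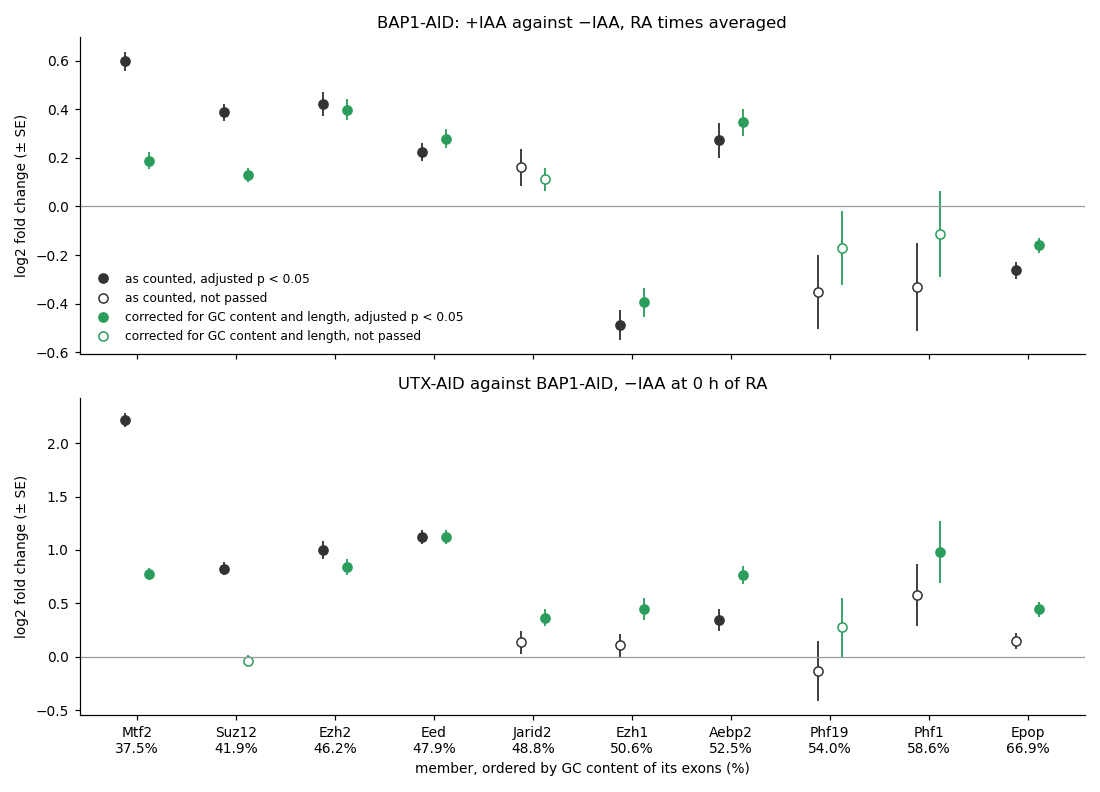
Log2 fold change (vertical axis, bars are standard errors) of the members, for IAA in BAP1-AID (top) and for UTX-AID against BAP1-AID without IAA at 0 h (bottom). Members are ordered from left to right by the GC content of their longest transcript. Black points are as counted and green points are corrected for GC content and length, filled where the adjusted p was under 0.05. *Mtf2* drops from 0.60 to 0.19 in the top panel and from 2.22 to 0.78 in the bottom panel, while *Eed* and *Ezh2* change little.

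In UTX-AID, none of the 10 members passed with IAA by edgeR's test, where 2.62% of all genes did, and 1 had an unadjusted p under 0.05. This was *Eed*, at -0.11 (SE 0.034, adjusted p = 0.1). Its levels were 214 and 233, 209 and 218, and 201 and 219.7 CPM without IAA, and 208 and 201, 198 and 196, and 197 and 196 CPM with IAA, with the +IAA libraries lower at each time. *Eed* passed with DESeq2 (adjusted p = 0.0138) and after the GC and length adjustment (adjusted p = 0.0342). *Mtf2* (0.00, SE 0.027), *Aebp2* (0.00, SE 0.035), and *Suz12* (-0.01, SE 0.033) lay close to 0, and *Ezh2* was 0.07 (SE 0.037, adjusted p = 0.422).

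Tested directly, the IAA effect of 6 of 10 members differed by clone, where 25.9% of all genes did. The difference, UTX-AID minus BAP1-AID, was -0.61 for *Mtf2* (SE 0.052, adjusted p = 1.7e-08), -0.41 for *Suz12* (SE 0.050, adjusted p = 1.6e-06), -0.37 for *Ezh2* (SE 0.066, adjusted p = 0.00016), -0.36 for *Eed* (SE 0.054, adjusted p = 3.12e-05), -0.29 for *Aebp2* (SE 0.084, adjusted p = 0.0124), and 0.49 for *Ezh1* (SE 0.086, adjusted p = 0.000165). All 6 passed after the GC and length adjustment (19.8% of all genes), where the *Mtf2* difference was -0.15 (adjusted p = 0.0187) and that of *Suz12* -0.14 (adjusted p = 0.0224). *Jarid2* differed by -0.22 (adjusted p = 0.0595) and passed with DESeq2 (adjusted p = 0.0171). At 0 h alone, *Ezh2* (adjusted p = 0.108) and *Aebp2* (adjusted p = 0.161) did not pass.

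The third comparison asks whether IAA altered the RA response of a member. No member passed by edgeR's test in either clone at 3 or 6 h. Of all genes, the share passing in BAP1-AID was 0.00% (3 h) and 0.153% (6 h), and UTX-AID gave 0.0123% (3 h) and 0.00% (6 h). For BAP1-AID, 2 members had an unadjusted p under 0.05 at each time, *Mtf2* and *Suz12*, and in UTX-AID 1 at 3 h (*Phf19*) and 0 at 6 h. In BAP1-AID, the interaction of *Suz12* at 6 h was -0.37 (SE 0.082, adjusted p = 0.109), and that of *Mtf2* at 3 h was -0.36 (SE 0.099, adjusted p = 0.338). DESeq2 called both, with 1 member at each time (adjusted p = 0.000129 for *Suz12* at 6 h and 0.0221 for *Mtf2* at 3 h), and none in UTX-AID. Without either −IAA library at 3 h, *Suz12* at 6 h passed in edgeR (adjusted p = 0.00721 without replicate 1 and 0.00888 without replicate 2). Without replicate 2, *Mtf2* at 3 h passed too (adjusted p = 0.00626), as did *Jarid2* at 3 h (adjusted p = 0.0345).

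Before RA and without IAA, 5 of 10 members were higher in UTX-AID than in BAP1-AID and none lower, where 52.6% of all genes differed. *Mtf2* was at 680.4 and 672 CPM against 146 and 145 CPM, a 4.65-fold difference (log2 fold change 2.22, SE 0.066, adjusted p = 3.89e-17). *Eed* was at 214 and 233 CPM against 104 and 102 CPM (1.12, SE 0.067, adjusted p = 2.42e-12), and *Ezh2* at 283 and 313 CPM against 142 and 156 CPM (1.00, SE 0.081, adjusted p = 4.17e-10). *Suz12* differed by 0.82 (SE 0.062, adjusted p = 9.73e-11) and *Aebp2* by 0.34 (SE 0.103, adjusted p = 0.00702). By the stricter size of 1, 2 members passed, *Mtf2* and *Eed*, where 20.9% of all genes did.

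Base composition also moved with this comparison. Spearman's rho between the clone difference and GC content was -0.49 across 12001 genes. After the adjustment, *Mtf2* differed by 0.78 (adjusted p = 4.45e-11), and *Suz12* turned to -0.04 and no longer passed (adjusted p = 0.597). *Eed* (1.12) and *Ezh2* (0.84) held, and *Aebp2* rose to 0.77. *Ezh1* (0.45), *Phf1* (0.98), *Epop* (0.44), and *Jarid2* (0.37) also passed then, all higher in UTX-AID, which made 8 of 10 where 48.2% of all genes passed. Before the adjustment, *Epop* was 0.15 (adjusted p = 0.119) by edgeR's test and passed with DESeq2 (0.19, adjusted p = 0.0434). As counted, *Aebp2* did not pass without replicate 1 of −IAA BAP1-AID at 0 h (adjusted p = 0.163) or replicate 2 of −IAA UTX-AID at 0 h (adjusted p = 0.0936).

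The 6 h RA response differed between the clones for *Mtf2* (UTX-AID minus BAP1-AID -0.27, SE 0.063, adjusted p = 0.0198) and *Suz12* (-0.23, SE 0.061, adjusted p = 0.0449), which is 2 of 10 members where 2.71% of all genes differed. The *Mtf2* call was kept in 7 and the *Suz12* call in 2 of the 24 fits that left out 1 library, with adjusted p-values up to 0.0977 and 0.17. After the GC and length adjustment, neither passed (-0.09, adjusted p = 0.526 for *Mtf2* and -0.13, adjusted p = 0.285 for *Suz12*), and *Jarid2* was the only member that did (-0.30, adjusted p = 0.043), where 2.35% of all genes passed. As counted, *Jarid2* also passed without replicate 2 of −IAA BAP1-AID at 0 h (adjusted p = 0.0428) or without either −IAA BAP1-AID library at 3 h (0.00404 and 0.000833).

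The ratios of alternative subunits were taken within each library. *Ezh2* exceeded *Ezh1* per length by a median of 8.02-fold (6.72 to 8.96) in −IAA BAP1-AID libraries and by 14.9-fold (13.4 to 16.9) with IAA, without overlap. In UTX-AID, it was 14.2-fold (13.4 to 18.2) without and 15.1-fold (14.9 to 16.3) with IAA, and the arms overlapped. *Mtf2* made up between 94.8% and 98.8% of the summed per-length level of the Polycomb-like genes in all 24 libraries.

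The *Aebp2* to *Jarid2* ratio moved with RA. Its log2 value in BAP1-AID was between -3.11 and -2.90 at 0 h, between -2.54 and -2.42 at 3 h, and between -2.70 and -2.58 at 6 h. In UTX-AID, it was between -2.98 and -2.76 at 0 h, between -2.14 and -2.01 at 3 h, and between -2.09 and -1.98 at 6 h. The 0 h libraries did not overlap the RA libraries in either clone.

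**Figure D5:**
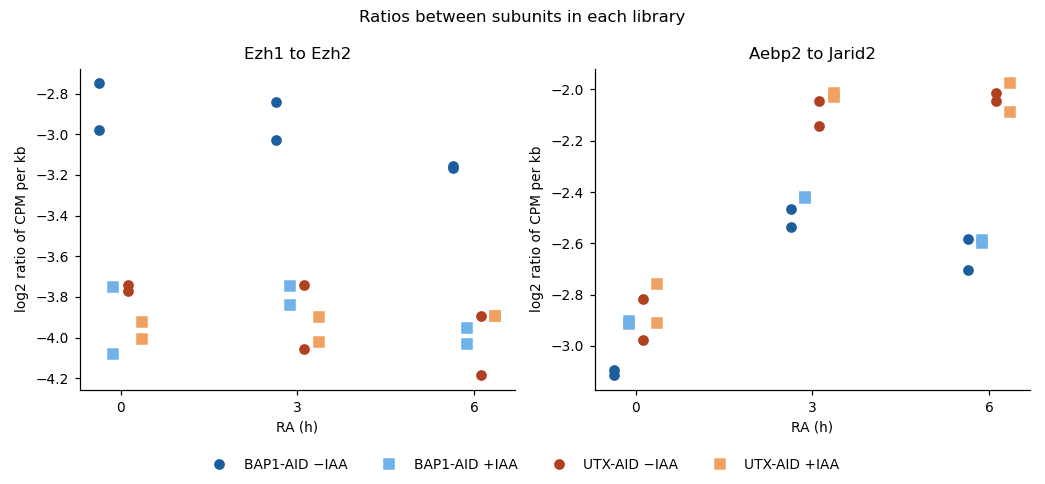
Log2 ratio of the per-length levels of *Ezh1* to *Ezh2* (left) and *Aebp2* to *Jarid2* (right) in each of the 24 libraries by hours of RA, with BAP1-AID in blue, UTX-AID in red, and +IAA in the paler shade. The −IAA BAP1-AID libraries stand above all others on the left, and every library with RA lies above those of its clone at 0 h on the right.

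The genes that work with or against PRC2 gave a mixed picture. Of 8 further subunits and partners, 1 was higher at 6 h of RA in BAP1-AID (*Lcorl*, 0.61, SE 0.12, adjusted p = 0.00202) and none passed in UTX-AID by edgeR's test, where 24% and 12.4% of all genes passed. With IAA in BAP1-AID, 4 of the 8 were higher, led by *Lcorl* (0.79, SE 0.095, adjusted p = 4.77e-05), and 1 was lower, where 36.1% of all genes passed, and after the GC and length adjustment 2 were higher and 3 lower, where 27.8% did. The lower gene, named after its values were seen, was *Rbbp4*, which encodes a histone-binding subunit shared with other complexes (-0.12, adjusted p = 0.0337). Of 7 genes that oppose PRC2, *Kdm6b*, which encodes the demethylase JMJD3, rose at 6 h by 0.98 (SE 0.051, adjusted p = 3.51e-08) in BAP1-AID and 0.85 (SE 0.071, adjusted p = 4.38e-07) in UTX-AID. In BAP1-AID, *Ash1l* (0.26) and *Setd2* (0.19), which encode H3K36 methyltransferases, passed as well, which made 3 of 7 (24% of all genes passed). From 0 to 6 h, the *Setd2* mean went from 72.8 to 73.6 CPM without IAA and from 111.7 to 138.6 CPM with IAA. That of *Ash1l* went from 21.6 to 24.1 CPM without and from 33.4 to 41.5 CPM with IAA. For IAA averaged over the RA times, as counted, 6 of the 7 passed in BAP1-AID, both directions together (36.1% of all genes), and 1 in UTX-AID (2.62%).

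PRC1, which ubiquitinates H2A, is the Polycomb complex most closely tied to PRC2. Of its 23 genes, 3 were higher and 10 lower at 6 h in BAP1-AID, and 2 were higher and 5 lower in UTX-AID, where 24% and 12.4% of all genes passed, with medians of -0.05 and -0.11 against 0.01 and 0.00 over all genes. *Bcor*, a corepressor in a variant PRC1, fell in both clones (-0.95, SE 0.074, adjusted p = 1.25e-06 and -0.72, SE 0.083, adjusted p = 1.38e-05). In UTX-AID, *Kdm2b*, which recruits PRC1 to CpG islands, fell (-0.56, SE 0.065, adjusted p = 1.42e-05) and *Rybp*, a stimulator of variant PRC1, rose (0.36, SE 0.053, adjusted p = 0.000153). With IAA in BAP1-AID, 10 of the 23 were higher and 4 lower (36.1% of all genes passed), and after the adjustment 6 and 2 (27.8%). These lists were chosen with earlier results of these data known, and the difference between PRC1 and PRC2 was not tested.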

How the data were processed

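PolyA-selected RNA of 24 libraries, 2 in each of 12 groups, was sequenced and deposited as one table of 26264 genes. The authors aligned reads to mm39 with HISAT2 2.2.1, sorted them with SAMtools 1.19, and made the deposited expected counts, whole numbers derived from coverage, with StringTie 2.2.1. The annotation, read length, and use of strand are not given in the sources used here. Library totals were 42018795 to 54034789 counts.

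Genes were kept with filterByExpr (minimum count 10, minimum total 15) and tested with edgeR 4.0.16 in R 4.3.3 (TMM scaling, quasi-likelihood F test), in 1 fit per clone (12 libraries each, 15695 and 16268 genes) and 1 fit of all 24 libraries (16816 genes) for differences between clones. All 10 members passed the filter in every fit. P-values were adjusted by Benjamini-Hochberg over all genes of a fit, a gene passed at an adjusted p under 0.05, and SE is the log2 fold change divided by the square root of F. Levels are CPM scaled by TMM over all 24 libraries. Gene positions, exon lengths, and the GC content and length of the longest transcript came from GENCODE vM39 on mm39 (91.0% of genes matched by symbol). Promoters came from RefSeq on GRCm38.p6. The scripts were tested on simulated data.

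Alternatives were DESeq2 1.42.0, RLE size factors, no filter, the replicate number as a block, and 1 fit of all libraries. Others were the −IAA arm alone, the longest transcript as length for levels and ratios, and leaving out each library. A further alternative, the GC and length adjustment, used splines (5 degrees of freedom) as offsets per library. They were fitted on the GC content and the length of each gene's longest transcript. All 10 members are named. Other lists are given by counts, with the passing genes of largest change. The members and lists were chosen with earlier results of these data known.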

Additional observations from a re-analysis of the deposited data

Results flagged for a closer look

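The results below are those whose response differed between the clones by a test of the difference itself in the 24-library edgeR fit (UTX-AID minus BAP1-AID, log2 scale, Benjamini-Hochberg adjusted). For the IAA effect averaged over the RA times, these were *Mtf2* (-0.6112), *Suz12* (-0.4108), *Ezh2* (-0.374), *Eed* (-0.3558), *Aebp2* (-0.2902), and *Ezh1* (0.4903). For the 6 h RA response, they were *Mtf2* (-0.2696, adjusted p = 0.0198) and *Suz12* (-0.229, adjusted p = 0.0449). Each clone is 1 line with 1 tag, so clone, tag, and library handling cannot be told apart. The GC trend of the libraries also differed between the clones and, in BAP1-AID, between the arms, and its part in these results was not tested beyond the adjusted values given above.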

How the results depend on the processing

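Of 31 member results past the threshold, 24 kept their side and direction in every alternative run, and 25 did so apart from leaving out a library. DESeq2 called 1 member for IAA in UTX-AID and 1 in each BAP1-AID interaction, at 3 and 6 h. The GC and length adjustment gave 8 members for the clone difference at 0 h, 1 for the clone difference in the 6 h RA response, 1 for IAA in UTX-AID, and 5 for 6 h of RA in BAP1-AID, and the same counts of 8, 1, 1, and 5 with the replicate block added. *Suz12* between the clones turned to -0.036 under the adjustment and to -0.060 with the block as well. The cause was not tested. The −IAA arm alone left 1 member with a clone difference in the 6 h response.

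The sources used here do not say whether libraries with the same replicate number were handled together. Correlations of same-numbered deviations were -0.05 to 0.25 in BAP1-AID (1 of 15 pairs over 0.1). In UTX-AID they were 0.03 to 0.22, all positive (7 of 15 over 0.1). The replicate block removed no call and brought past the threshold *Eed* (adjusted p = 0.0411), making 1 member, for IAA in UTX-AID, *Phf19* for IAA in BAP1-AID (0.0469) and for 3 h of RA in UTX-AID (0.0331), and *Jarid2* for the clone difference in the IAA effect (0.0266) and in the 6 h response (0.0439). With the longest transcript, 7 and 4 members changed rank, and the median log2 ratios became -3.678 and -4.119 for *Ezh1* to *Ezh2*, and -1.705 and -1.179 for *Aebp2* to *Jarid2* (BAP1-AID first).

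Leaving out each library gave 3 to 4 members at 3 h of RA in BAP1-AID and 2 to 3 in UTX-AID, 3 to 5 and 2 to 3 at 6 h, 7 to 9 and 0 to 0 for IAA, and 4 to 5 for the clone difference at 0 h. The clone difference in the IAA effect had 6 to 7, that in the 6 h response 0 to 3, and the interactions 0 to 2 at 3 h and 0 to 1 at 6 h in BAP1-AID, and 0 to 0 in UTX-AID. *Phf1* and *Phf19* had the fewest counts of the members, 84 to 290 per library.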

Other observations

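Over the 12 group means of log2 CPM, Pearson's r was 0.97 for *Ezh2* and *Eed*, 0.92 for *Ezh2* and *Suz12*, 0.88 for *Eed* and *Suz12*, and 0.95 for *Eed* and *Mtf2*. For *Ezh1*, it was 0.37 with *Ezh2*, 0.51 with *Eed*, and 0.09 with *Suz12*. *Ezh1* and *Jarid2* gave -0.68. These are descriptions over group means that share the clones, the RA times, and the GC trend of the libraries, and clone differences enter each of them. The genes whose pattern over the group means was most like that of *Aebp2*, among 12329 genes with a mean above 1 CPM, were *Dennd2c* (r = 0.97), *Ino80d* (r = 0.94), and *Csnk1e* (r = 0.94).

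*Ezh2* carries an E2F motif in its promoter, and 25 E2F target genes of DNA replication were measured beside it. At 6 h of RA, 4 were higher and 1 lower in BAP1-AID, and 3 were higher and none lower in UTX-AID, with medians of 0.00 in both clones, where 24% and 12.4% of all genes passed. With IAA in BAP1-AID, 7 were higher and 4 lower (median -0.04, as over all genes, of which 36.1% passed), and after the GC and length adjustment 8 were higher and none lower (median 0.05, against 0.01 over all genes, of which 27.8% passed). In UTX-AID, 3 were higher with IAA and none lower, where 2.62% of all genes passed.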
